A study of Mus musculus with 4 samples.

Results

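Matrix metalloproteinases (MMPs, 8 genes) and their tissue inhibitors (TIMPs, 2 genes) were followed in cultured mouse macrophages of 2 genotypes. The 10 genes, *Mmp2*, *Mmp8*, *Mmp9*, *Mmp12*, *Mmp13*, *Mmp14*, *Mmp19*, *Mmp27*, *Timp1* and *Timp2*, were taken by symbol from the 34745 genes of the expression table, and each was read in all 4 count columns. Of them, 9 were kept by the low-count filter and tested among 12418 genes, and *Mmp2* was not. The WT libraries came from *G3bp1* f/f macrophages, which carry floxed *G3bp1* alleles, and the KO libraries came from *G3bp1*mac-/- macrophages, in which Cre recombinase under the *Lyz2* promoter was to delete those alleles. G3BP1 is the RNA-binding scaffold protein of stress granules. The *Lyz2* promoter is active in neutrophils and monocytes as well as in macrophages. The cells were derived from bone marrow, all were grown in DMEM with 10% fetal bovine serum, and the labels give no stress or treatment. The study used C57BL/6 J mice, females for those it bought, but the age and sex of the floxed donors of these libraries are not stated. Each genotype had 2 libraries of total RNA, numbered 1 and 2, and nothing says whether they came from separate mice, so the p-values measure only the spread between these libraries, which may be technical. Below, values are given in the order replicate 1, replicate 2.

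MMPs are zinc endopeptidases that are made as inactive proenzymes and, once their prodomain is cut or displaced, cleave collagens, elastin, other matrix proteins and many chemokines and receptors. TIMPs bind the active site of MMPs and block it, and TIMP2 also bridges proMMP2 to the membrane-type enzyme MMP14, which activates it. Macrophages use MMPs to move through and remodel tissue, and MMP12, first described as the macrophage elastase, is the member most closely tied to this cell type.

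The libraries had total counts of 17004167 and 16926884 in WT and of 16724241 and 19747909 in KO. CPM are counts after scaling to one TMM-adjusted library total, and with 0 counts a gene may still lie at up to 0.152 to 0.188 CPM by counting error alone. *G3bp1*, the targeted gene, had counts of 1691 and 2875 in WT against 1307 and 2296 in KO. This gives 104 and 180 CPM in WT against 70.1 and 117 CPM in KO. The log2 fold change was -0.61 (SE 0.40, adjusted p = 0.904 in edgeR's quasi-likelihood test). The log2 ratio of KO over WT was -0.57 for the libraries numbered 1 and -0.63 for those numbered 2. The genotypes overlapped across the numbers, and counts over the whole gene do not show the loss of single exons. WT and KO below are therefore the labels' names. The study reported efficient loss of G3BP1 in macrophages of such mice, with mRNA and protein measured in bone marrow-derived cells. Macrophage markers (10 genes, led by *Lyz2* and *Cd68*) summed to 26650 and 24920 CPM in WT and to 21350 and 25040 CPM in KO.

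Promoter sequences are shown for the genes on which the results below turn: *Mmp13* and *Mmp14*, which were several-fold higher in the libraries numbered 2 than in those numbered 1 in both genotypes, and *Mmp12* and *Mmp27*, which were lower in both KO libraries. Each is the 250 bases before a RefSeq transcription start on GRCm38.p6, plus strand, and the capitals mark the AP-1 letters TGAGTCA or their reverse complement TGACTCA. The *Mmp13* window is chr9:7272264-7272513 and the *Mmp14* window is chr14:54431348-54431597. *Mmp12* has a window at chr9:7344147-7344396 (start a) and another at chr9:7347124-7347373 (start b), and the *Mmp27* window is chr9:7571146-7571395. The deposited *Mmp12* span begins at 7344381, so both starts lie inside it, start a close to its first base.
Mmp13: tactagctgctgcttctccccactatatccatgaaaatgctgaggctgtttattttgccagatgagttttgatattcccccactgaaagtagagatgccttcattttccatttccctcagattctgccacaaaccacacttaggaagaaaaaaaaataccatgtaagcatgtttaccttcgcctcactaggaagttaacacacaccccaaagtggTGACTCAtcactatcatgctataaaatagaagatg
Mmp14: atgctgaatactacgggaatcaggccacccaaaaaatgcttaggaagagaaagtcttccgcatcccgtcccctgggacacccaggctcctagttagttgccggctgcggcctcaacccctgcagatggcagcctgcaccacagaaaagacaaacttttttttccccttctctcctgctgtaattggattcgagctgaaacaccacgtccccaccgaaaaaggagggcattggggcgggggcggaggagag
Mmp12 start a: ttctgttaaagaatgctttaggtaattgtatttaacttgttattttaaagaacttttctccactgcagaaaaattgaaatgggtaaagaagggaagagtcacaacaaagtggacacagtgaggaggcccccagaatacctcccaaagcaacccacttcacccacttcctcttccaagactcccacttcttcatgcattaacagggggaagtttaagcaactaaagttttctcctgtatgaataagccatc
Mmp12 start b: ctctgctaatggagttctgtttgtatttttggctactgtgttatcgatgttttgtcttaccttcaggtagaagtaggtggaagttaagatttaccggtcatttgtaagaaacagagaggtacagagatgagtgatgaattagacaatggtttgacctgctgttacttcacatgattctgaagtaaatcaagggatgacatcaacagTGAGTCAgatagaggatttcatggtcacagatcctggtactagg
Mmp27: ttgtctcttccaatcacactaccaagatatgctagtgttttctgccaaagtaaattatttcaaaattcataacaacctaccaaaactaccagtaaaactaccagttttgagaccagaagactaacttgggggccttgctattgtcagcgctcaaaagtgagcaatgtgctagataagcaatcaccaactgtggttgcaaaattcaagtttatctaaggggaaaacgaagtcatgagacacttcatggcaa

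The AP-1 letters lie 35 to 29 bases before the *Mmp13* start, next to the letters TATAAA at 16 to 11 bases, and 44 to 38 bases before start b of *Mmp12*. These letters occur on either strand in 4.46% of the 32851 RefSeq windows of this length, and TATAAA in 12.4%. The ETS core letters GAGGAA, present in 23.3% of all windows, were found on the minus strand 86 to 81 bases before start a of *Mmp12* and 219 to 214 bases before the start of *Mmp8*. None of these 3 sets of letters is in the *Mmp14*, *Mmp27*, *Timp1* or *Timp2* windows. RefSeq windows were at hand for 7 of the 10 genes, and *Mmp2*, *Mmp9* and *Mmp19* had none. A match is a description of the letters and not a measured binding site.

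Levels were compared between genes as FPKM, which divides by gene length. *Mmp12* stood far above the rest, with 651 and 586 FPKM in WT and 502 and 470 FPKM in KO, and ranked 85 among all genes by its mean. *Timp2* came next with 163 and 119 FPKM in WT and 165 and 126 FPKM in KO. *Mmp12* was above *Timp2*, and *Timp2* above every other member, in all 4 libraries. Then came *Mmp14* with a mean of 29.0 FPKM, *Mmp19* with 27.0, *Mmp13* with 17.6, *Mmp27* with 6.52, *Timp1* with 5.94, *Mmp8* with 5.12 and *Mmp9* with 2.79 FPKM over the 4 libraries. Each neighbouring pair from *Mmp14* down to *Mmp9* overlapped in range, so neighbours in this order do not differ beyond their spread. *Mmp2* was last with 0.0271 FPKM, apart from *Mmp9* in all 4 libraries.

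**Figure D1:**
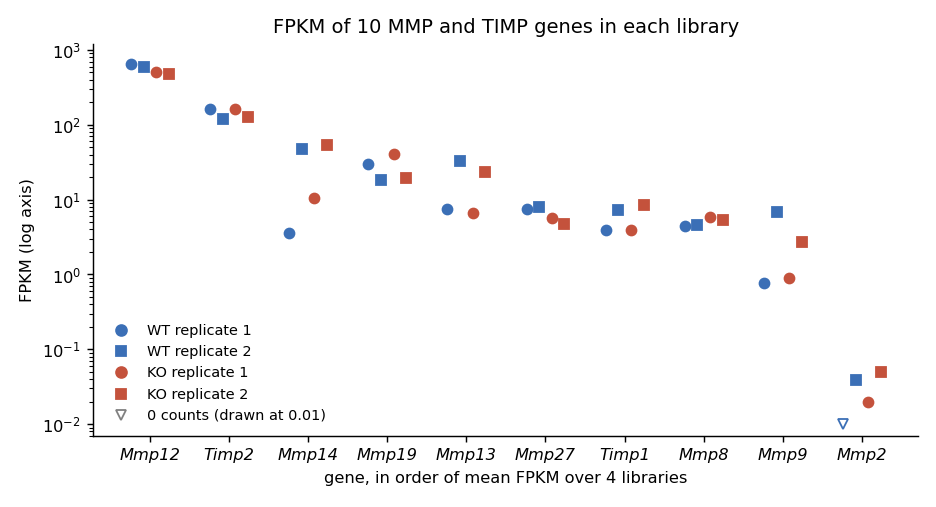
FPKM (log axis) of the 10 genes in each library, in order of mean FPKM; circles are replicate 1, squares replicate 2, blue WT and red KO, and the open triangle is a count of 0. *Mmp12* lies between 470 and 651 FPKM in all 4 libraries, whereas *Mmp14* spreads 15.3-fold, with both squares above both circles.

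Among the gelatinases, which cleave denatured collagen and basement membrane collagen, *Mmp2* (ENSMUSG00000031740, chr8:92827328-92853417) was near the counting floor. It had counts of 0 and 2 in WT against 1 and 3 in KO, at or under the floor of 3 counts in every library. Positions are given on GRCm38, and all members but *Timp2* are on the plus strand. *Mmp9* (ENSMUSG00000017737, chr2:164940780-164955850) had counts of 51 and 455 in WT against 59 and 209 in KO, which are 3.14 and 28.6 CPM in WT and 3.17 and 10.6 CPM in KO. The libraries numbered 1 were low and alike in both genotypes, and those numbered 2 were high, WT more than KO. The log2 fold change of KO over WT was -1.20 (SE 1.08, 95% confidence interval -3.94 to 1.54, adjusted p = 0.952 in edgeR's quasi-likelihood test), and the genotypes overlapped. Without WT replicate 2 the log2 fold change was 1.10. Here and below, a fit without 1 library leaves its genotype with a single replicate number. Differences between the numbers then enter the value.

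The collagenases cut intact fibrillar collagen. *Mmp13* (ENSMUSG00000050578, chr9:7272514-7283333) had counts of 339 and 1507 in WT against 292 and 1218 in KO, which is 20.9 and 94.6 CPM against 15.7 and 61.9 CPM. Both libraries numbered 2 were above both numbered 1, and the KO library was the lower within each number. The pooled log2 fold change was -0.57 (SE 0.90, interval -2.86 to 1.72, adjusted p = 0.971 by edgeR). It was 0.86 without WT replicate 2 and 0.10 without KO replicate 1. *Mmp8* (ENSMUSG00000005800, chr9:7558429-7568486), stored in neutrophil granules, had counts of 188 and 193 in WT against 244 and 260 in KO, which is 11.6 and 12.1 CPM against 13.1 and 13.2 CPM. Both KO libraries were above both WT libraries, as for 20.0% of all tested genes, and the log2 fold change was 0.15 (SE 0.24, interval -0.45 to 0.75, adjusted p = 0.971 by edgeR). *Mmp8* was the steadiest member, with 1.32-fold between its highest and lowest FPKM.

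*Mmp12* (ENSMUSG00000049723, chr9:7344381-7369499), which degrades elastin, had counts of 110140 and 98739 in WT against 83558 and 92437 in KO. This was 6790 and 6197 CPM in WT against 4484 and 4696 CPM in KO. The gene took 0.648% and 0.583% of all counts in WT and 0.50% and 0.468% in KO. The mean was 6493 ± 420 CPM over the WT libraries and 4590 ± 150 CPM over the KO libraries (SD, n = 2 each), 1.41-fold higher in WT. The log2 fold change was -0.50 (SE 0.17, interval -0.93 to -0.07). In edgeR's quasi-likelihood test the unadjusted p was 0.0305 and the adjusted p was 0.643. The 4 libraries did not overlap between genotypes, and KO against WT gave a log2 ratio of -0.60 for the libraries numbered 1 and of -0.40 for those numbered 2. *Mmp12* showed little difference between the numbers, at 0.913-fold in WT and 1.05-fold in KO for number 2 over 1.

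*Mmp14* (ENSMUSG00000000957, chr14:54431612-54441265), a membrane-anchored collagenase that also activates proMMP2, varied most. It had counts of 350 and 4638 in WT against 1017 and 6203 in KO, which is 21.6 and 291 CPM against 54.6 and 315 CPM. The libraries numbered 2 were 13.5-fold higher in WT and 5.77-fold higher in KO than those numbered 1. The genotypes overlapped, and the log2 fold change of KO over WT was 0.24 (SE 1.29, interval -3.04 to 3.53, adjusted p = 0.990 by edgeR). Within number 1 the log2 ratio was 1.34 and within number 2 it was 0.11. Leaving out WT replicate 1 gave -0.66 and leaving out KO replicate 2 gave -1.53, whereas the value was 1.01 with KO replicate 1 left out and 3.06 with WT replicate 2 left out.

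*Mmp19* (ENSMUSG00000025355, chr10:128790953-128800824), an MMP of macrophages and other cells outside the main subgroups, ran the other way between the numbers. It had counts of 1712 and 1049 in WT against 2317 and 1315 in KO, which is 106 and 65.8 CPM against 124 and 66.8 CPM. Both libraries numbered 1 were the higher, and the log2 fold change of KO over WT was 0.16 (SE 0.41, adjusted p = 0.982 by edgeR). The value turned to -0.18 without WT replicate 2 and to -0.36 without KO replicate 1. Part of *Mmp19* (789 bases) overlaps *Tmem198b* on the other strand, which had between 122 and 229 counts, and the sources do not say if counting was by strand.

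*Mmp27* (ENSMUSG00000070323, chr9:7571396-7581885), a little-studied MMP whose gene lies in the same cluster, had 423 and 448 counts in WT and 311 counts in each KO library, which is 26.1 and 28.1 CPM against 16.7 and 15.8 CPM. The mean was 27.1 ± 1.44 CPM over the WT libraries and 16.2 ± 0.629 CPM over the KO libraries (SD, n = 2 each), 1.67-fold higher in WT. The log2 fold change was -0.74 (SE 0.21, interval -1.28 to -0.20). In edgeR's quasi-likelihood test the unadjusted p was 0.0170 and the adjusted p was 0.498. The genotypes did not overlap, with log2 ratios of KO to WT of -0.64 within number 1 and -0.83 within number 2. When each library was left out in turn, the log2 fold change of *Mmp27* stayed between -0.79 and -0.71 and that of *Mmp12* between -0.60 and -0.43.

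The inhibitors differed in level, and neither was called between genotypes. *Timp2* (ENSMUSG00000017466, chr11:118301069-118355740, minus strand), which inhibits soluble and membrane-bound MMPs, had counts of 11372 and 8270 in WT against 11285 and 10160 in KO, which is 701 and 519 CPM against 606 and 516 CPM. The genotypes overlapped, and the log2 fold change was -0.12 (SE 0.26, interval -0.78 to 0.53, adjusted p = 0.978 by edgeR). On deposited FPKM, which carry no TMM factor, the means lay the other way, at 141 in WT and 145 in KO. *BC100451*, on the same strand within *Timp2*, had at most 22 counts. *Timp1* (ENSMUSG00000001131, chrX:20870166-20874735), an inducible secreted inhibitor that binds proMMP9, had counts of 93 and 171 in WT against 92 and 233 in KO, which is 5.73 and 10.7 CPM against 4.94 and 11.8 CPM. Its log2 fold change was 0.03 (SE 0.54, interval -1.34 to 1.40, adjusted p = 0.996 by edgeR), too close to 0 for its sign to hold under another scaling. *Timp1* lies wholly within *Syn1* on the other strand, which had between 11 and 39 counts.

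Across the 9 tested members, 0 were called at an adjusted p under 0.05 and more than a 2-fold change, as were 0 of all 12418 genes (0% called). At an unadjusted p under 0.05, where the table held 823 genes, *Mmp12* and *Mmp27* were lower in KO, and 1.99% of all tested genes were lower at that limit. Both KO libraries lay below both WT libraries for the same pair, against 16.9% of all genes, and above them for *Mmp8* only. The median log2 fold change was -0.12 over the 9 members, 4 of which were above 0, and 0.04 over all genes. The precision was uneven, with a SE of the log2 fold change from 0.17 for *Mmp12* to 1.29 for *Mmp14*.

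**Figure D2:**
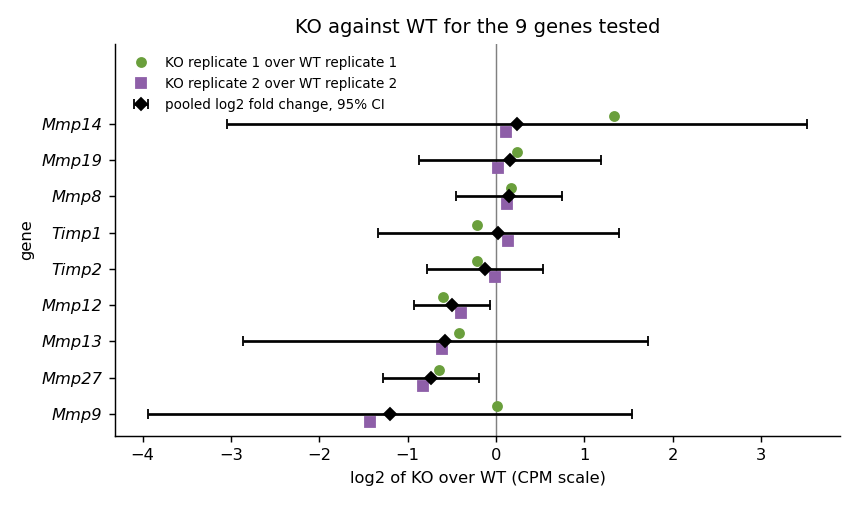
Log2 of KO over WT on the CPM scale for the 9 tested genes; diamonds and bars are the pooled log2 fold change with its 95% confidence interval, circles the ratio within number 1 and squares the ratio within number 2. The intervals of *Mmp12* and *Mmp27* lie below 0 (upper bounds -0.07 and -0.20), and the other 7 span 0.

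The libraries separated by replicate number for 6 of the 9 tested members, and by genotype for 3. Of all tested genes, 25.2% were higher and 23.2% lower in number 2, and 20.0% higher and 16.9% lower in KO. Separation by number was thus the more frequent over all genes too. What the numbers stand for is not stated, so these differences are described and not tested. Both libraries numbered 2 lay above both numbered 1 for *Mmp14*, *Mmp9*, *Mmp13* and *Timp1* (25.2% of all genes), and below them for *Mmp19* and *Timp2* (23.2% of all genes). More than 2-fold in both genotypes was reached by *Mmp14*, *Mmp9* and *Mmp13*, and by 4.36% of all genes. The difference was 9.0-fold in WT and 3.33-fold in KO for *Mmp9*, and 4.52-fold and 3.94-fold for *Mmp13*. *Timp1* followed with 1.87-fold and 2.39-fold. By the smaller of the log2 differences in the 2 genotypes, 1.12% of all tested genes exceeded *Mmp14*, 1.82% exceeded *Mmp13* and 2.17% exceeded *Mmp9*. *Mmp19* stood at 0.624-fold in WT and 0.537-fold in KO, and *Timp2* at 0.740-fold and 0.852-fold. The median size of the log2 difference between the numbers was 0.68 in WT and 0.90 in KO over the members, beside 0.40 and 0.31 over all genes.

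**Figure D3:**
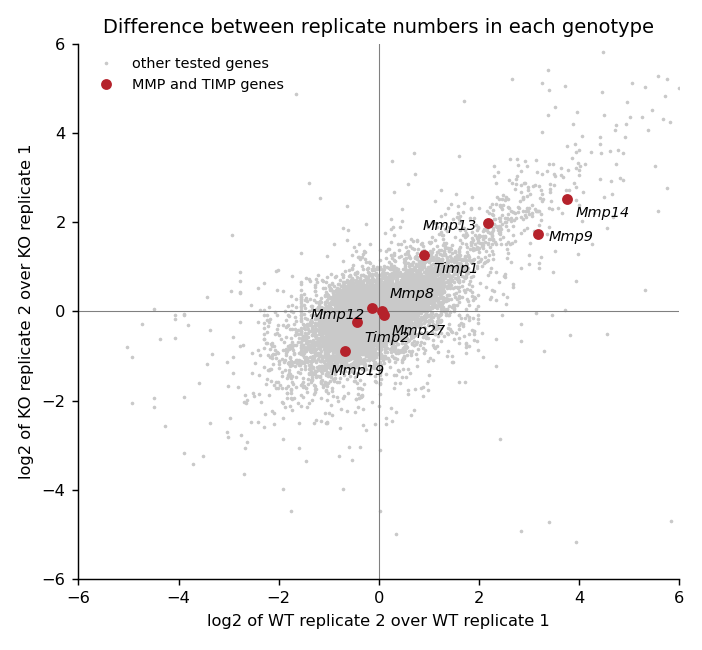
Log2 of replicate 2 over replicate 1 in WT (x axis) and in KO (y axis); red points are the 9 tested MMP and TIMP genes, grey points the other tested genes, and 31 genes lie outside the axes. *Mmp14*, *Mmp9* and *Mmp13* lie beyond 1.7 on both axes, and *Mmp8*, *Mmp12* and *Mmp27* lie near the origin.

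The balance of enzyme and inhibitor transcripts also differed between the numbers. The ratio of *Timp2* to *Mmp14* FPKM was 45.8 and 2.52 in WT and 15.7 and 2.31 in KO, so the inhibitor transcript was the more abundant in every library but by far less in the libraries numbered 2. The ratio of *Timp1* to *Mmp9* FPKM was 5.20 and 1.07 in WT and 4.44 and 3.18 in KO. Between the collagenases, *Mmp13* over *Mmp8* was 1.65 and 7.16 in WT and 1.10 and 4.30 in KO. Summed over the 23 MMP genes of the table, FPKM was 705 and 706 in WT and 575 and 583 in KO. *Mmp12* alone made up 92.3% and 83.0% of that sum in WT and 87.3% and 80.7% in KO. Over the 4 TIMP genes the sum was 168 and 127 FPKM in WT and 171 and 136 FPKM in KO, of which *Timp2* held between 92.6% and 97.4%.

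Of the members, *Mmp13*, *Mmp12*, *Mmp8* and *Mmp27* lie in the MMP gene cluster of chromosome 9, where 10 MMP genes span 427 kb. Expression in the cluster was uneven. *Mmp12* and *Mmp13*, 61.0 kb apart, had means of 552 and 17.6 FPKM. *Mmp3* (11 and 27 counts in WT, 28 and 42 in KO) and *Mmp10* (9 and 13, 10 and 14) between them and *Mmp8* were low, and *Mmp1a*, *Mmp1b* and *Mmp7* had 0 counts in all 4 libraries. *Mmp8* and *Mmp27* are separated by 2.91 kb, and their log2 fold changes of 0.15 and -0.74 had opposite signs. The ratio of *Mmp8* to *Mmp27* FPKM was 0.595 and 0.577 in WT and 1.05 and 1.12 in KO, so the FPKM were near one another in KO, where counts of 244 and 260 for *Mmp8* against 311 and 311 for *Mmp27* do not set their order. Neither gene was called between genotypes. *Mmp13*, at one end of the cluster, was the only one of the 4 that was more than 2-fold apart between the numbers. *Mmp12* overlaps *Mmp1b* by 1261 bases on the other strand, and *Mmp1b* had no counts.

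**Figure D4:**
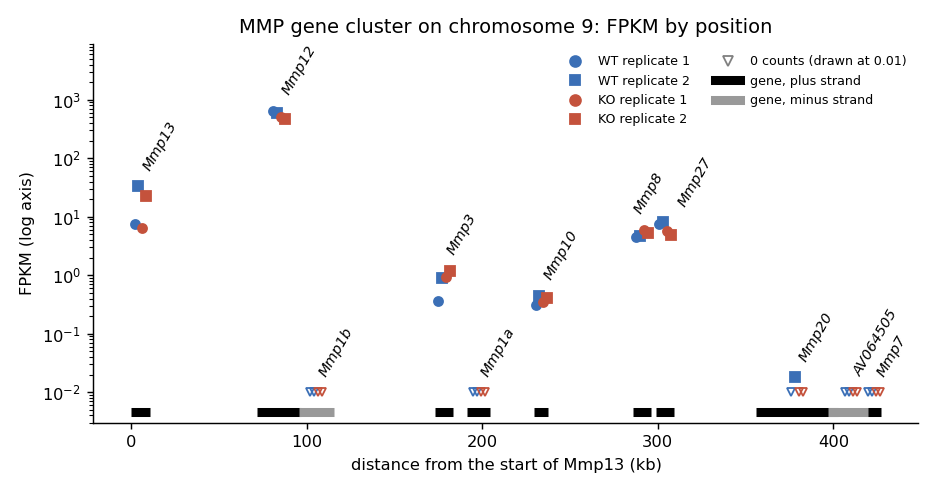
FPKM (log axis) against position in the chromosome 9 cluster, as distance in kb from the start of *Mmp13*; symbols are as in the plot of levels, and bars at the bottom are the genes by strand. *Mmp12* stands out at 470 to 651 FPKM, and *Mmp1a*, *Mmp1b* and *Mmp7* have 0 counts.

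Cell type markers are given beside *Mmp12*, *Mmp27* and *Mmp8*, and 0 of them were called between genotypes. Stromal markers (11 genes, 10 tested) were above 0 in 10 of 10 and summed to 82.2 and 94.9 CPM in WT and 358 and 336 CPM in KO. None was at 0 in all 4 libraries, but *Lepr* had 3 counts in WT replicate 1 and 0 in the rest. *Dcn* had counts of 658 and 666 in WT against 2224 and 2504 in KO, and *Pdgfra* 229 and 321 against 1320 and 1448. Mast cell and basophil markers (10 genes, 6 tested) were below 0 in 6 of 6, with sums of 116 and 103 CPM in WT and 43.8 and 53.2 CPM in KO. *Mcpt8* was at 0, and *Tpsb2* had counts of 667 and 561 in WT against 248 and 339 in KO. B cell markers (6 genes, 4 tested) were below 0 in 4 of 4 and summed to 21.95 and 22.9 CPM in WT and 11.9 and 11.1 CPM in KO. *Cd79b* had counts of 137 and 104 in WT against 61 and 70 in KO. The part of these cells in the differences of *Mmp12*, *Mmp27* and *Mmp8* was not tested, and in bulk libraries fewer cells of a type and less RNA per cell cannot be told apart.

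Other cell types that make these enzymes gave a mixed picture. Neutrophil markers (12 genes, 6 tested), relevant to *Mmp8* and *Mmp9*, were below 0 in 6 of 6 and summed to 78.7 and 118 CPM in WT and 69.6 and 88.2 CPM in KO, most of it *Csf3r*. The granule genes *Mpo* and *Elane* were at 0 in all 4 libraries. *S100a9* had counts of 91 and 82 in WT against 2 and 1 in KO, the lowest log2 fold change of the 6 tested (-5.98). *S100a8* had counts of 235 and 242 in WT against 133 and 209 in KO (-0.74), and *Csf3r* lay at -0.03. *Mmp8* was the higher in KO. Osteoclast markers (8 genes, 5 tested, 4 below 0) summed to 3877 and 3004 CPM in WT and 2907 and 2634 CPM in KO, led by *Atp6v0d2* and *Ctsk*, and *Oscar* and *Calcr* were at 0. Dendritic cell markers (7 genes, 4 tested, 3 above 0), mostly *Itgax*, summed to 270 and 384 CPM in WT and 393 and 426 CPM in KO. Endothelial markers (4 genes, 1 tested) summed to at most 6.44 CPM, with *Tek* and *Emcn* at 0. *Mmp2*, a gene that stromal cells commonly express, was at or under the floor of 3 counts in all 4 libraries. Its relation to the stromal sums was not tested. Of the 10 macrophage markers, all tested, 8 were below 0, and the median log2 fold change of the list was -0.17. In 1 of them both KO libraries lay below both WT libraries, beside 16.9% of all genes. *Itgam* was 1 of the 2 above 0, with a log2 fold change of 0.82. Beside the higher *Mmp14*, *Mmp9* and *Mmp13* in the libraries numbered 2, the neutrophil and dendritic sums were higher, and the osteoclast and endothelial sums lower (endothelial 5.80 and 3.26 CPM in WT, 6.44 and 2.44 CPM in KO), within both genotypes. Among the neutrophil markers *Lcn2*, whose protein binds MMP9, had counts of 9 and 247 in WT against 14 and 276 in KO, on the same side as *Mmp14* and *Mmp9*, and *Cxcr2* lay on the other side with 29 and 1 against 25 and 4. The part of any of these cells in the values of the MMP genes was not tested.

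Related proteases and inhibitors were taken from gene lists, none of which held a called gene. Of the 15 other MMP genes 4 were tested, 3 of them above 0 with a median log2 fold change of 1.03, and 5 had 0 counts in all libraries (*Mmp1a*, *Mmp1b*, *Mmp7*, *Mmp15* and *Mmp21*). *Mmp23* had 15 counts in each WT library and 56 and 41 counts in KO, and its log2 fold change was 1.44 (SE 0.42, adjusted p = 0.499 by edgeR). *Mmp28* had counts of 1 and 4 in WT against 14 and 22 in KO. Of the 4 other inhibitors 2 were tested, both above 0, and *Timp4* was at 0. *Timp3*, the matrix-bound TIMP, had counts of 63 and 79 in WT against 321 and 263 in KO, and its log2 fold change was 1.79 (SE 0.30, adjusted p = 0.2504 by edgeR). Of the 4 tested inhibitors *Timp3* had the largest log2 fold change, and its genotypes did not overlap. It stood at 0.410 and 0.517 FPKM in WT and 2.12 and 1.47 FPKM in KO, far below *Timp2* in level. Of the 17 ADAM and ADAMTS proteases, the neighbouring families that TIMP3 also inhibits, 13 were tested, with 10 above 0, 3 below and a median log2 fold change of 0.16, and 7 had both KO libraries above both WT libraries, as had 20.0% of all genes. The stromal markers, 10 of 10 tested above 0 with a median log2 fold change of 2.12, lay on the same side as *Timp3*, *Mmp23* and *Adam12*, and their part was not tested. *Adam8*, the most abundant by CPM, had counts of 6222 and 6366 in WT against 7649 and 6075 in KO, and *Adam12* 18 and 31 against 139 and 128. The anchored MMP inhibitor *Reck* had counts of 4 and 10 in WT against 5 and 25 in KO.

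Activators and substrates of the members were also counted. Of 11 genes of proMMP activation 7 were tested (5 above 0, 2 below, median log2 fold change 0.13), and 4 of the 7 had both libraries numbered 2 above both numbered 1, as had 25.2% of all genes. *Plau*, the urokinase that generates plasmin, had counts of 1808 and 4510 in WT against 1884 and 3865 in KO, and its receptor *Plaur* had counts of 4847 and 7328 in WT against 3647 and 5441 in KO. *Plat* had counts of 10 and 34 in WT against 104 and 63 in KO, and *Plg* was at 0. All 11 docking and clearance genes were tested (7 above 0, 4 below, median 0.01), among them *Cd63*, a tetraspanin that binds TIMP1, with counts of 53708 and 36929 in WT against 32437 and 43180 in KO. Of the 16 substrates, all tested, 15 were above 0 with a median log2 fold change of 1.42, beside 6776 of all 12418 genes above 0, and 11 had both KO libraries above both WT libraries, as had 20.0% of all genes. *Sparc* had counts of 444 and 429 in WT against 2458 and 2393 in KO, and *Col1a2* 161 and 190 against 1317 and 1016. Several of the substrates (*Col1a1*, *Col1a2*, *Col3a1*, *Dcn* and *Lum*) are also on the stromal marker list. The most abundant substrate, *Spp1* (osteopontin), had counts of 99221 and 94288 in WT against 100753 and 133789 in KO.

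Transcription factors of the AP-1, ETS and RUNX families, whose sites are known in MMP promoters, were tested in 12 of 13 cases. They lay 7 above 0 and 5 below, with a median log2 fold change of 0.04. Both libraries numbered 2 were above both numbered 1 for 7 of the 12 and below for 4, beside 25.2% and 23.2% of all genes. *Atf3*, the most abundant by CPM, had counts of 8553 and 5108 in WT against 8480 and 8815 in KO, and *Fosl1* had counts of 12 and 23 in WT against 12 and 51 in KO. *Runx2* had counts of 36 and 29 in WT against 87 and 39 in KO. Between genotypes, both KO libraries were above both WT libraries for 1 of the 12, beside 20.0% of all genes, and no factor was called.

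Genes with a pattern most like the members were sought for *Mmp14* and *Mmp9*, which had the widest range over the libraries. Likeness was the Euclidean distance between log2(CPM + 0.5) profiles centred on their own mean, over 4 libraries. Nearest to *Mmp14* were *Lox* (distance 0.278), a collagen cross-linking enzyme with counts of 12 and 309 in WT against 48 and 319 in KO, *Rnd1* (0.368) and the interferon-induced chemokine *Cxcl10* (0.404). Nearest to *Mmp9* were *Slc13a3* (0.184), *Edn1* (0.320) and *Il6* (0.338), each with at most 3 counts in both libraries numbered 1, so their distances rest on the added 0.5 CPM. With nothing added and only genes over 3 counts in every library, a choice made after seeing the data, all 6 nearest genes were others. They were *Tnfrsf8* (0.342), *Zhx2* (0.416) and *Tnfaip3* (0.428), an inhibitor of NF-kB signalling, for *Mmp14*. For *Mmp9* they were the guanylate-binding protein *Gbp3* (0.358), with counts of 176 and 1449 in WT against 179 and 878 in KO, the monocyte chemokine *Ccl2* (0.435) and *Eva1b* (0.440). The nearest genes thus depend on how low counts are treated.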

How the data were processed

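Total RNA of macrophages was sequenced in 4 libraries, 2 per genotype, and groups and replicate numbers were taken from the labels. Per the study's methods and the submitters' processing notes, the authors filtered reads with Seqtk, aligned them with HISAT2 2.0.4 and counted fragments per gene with StringTie 1.3.3b. The authors deposited these raw counts, not normalised, and paired every count with a FPKM value. These deposited FPKM values are scaled by gene length and library total, with no TMM factor. The processing notes name the build mm39, but of 34267 gene identifiers found in GENCODE M21, 27686 agreed in start and end with GRCm38, and all 10 members overlapped their GRCm38 locus, so positions are those of the table, read as GRCm38.

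Counts were tested in R 4.3.3 with edgeR 4.0.16 (filterByExpr with minimum count 10 and total 15, TMM, glmQLFit and glmQLFTest with genotype only, two-sided, Benjamini-Hochberg over all 12418 genes). Calls needed an adjusted p below 0.05 together with more than a 2-fold change, the limits in the study's methods. With edgeR and these limits the study did report genes that differ between the genotypes, without naming the edgeR test. Here the quasi-likelihood test called 0 genes and edgeR's exact test called 174. Ratios within a number had 0.5 counts added. Standard errors and 95% intervals were derived from the F statistic of that fit. Mean ± SD is over 2 libraries. Alternatives used limma 3.58.1 and DESeq2 1.42.0. The code was tested on simulated data. No sample was left out, and 0 list tests were run.

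The members and lists were chosen with earlier results of these data known. Named were all members, *G3bp1*, the most abundant tested gene of each pathway list and up to 3 with its smallest p. From each marker list, up to 2 of the most abundant were named, and any absent. Also named were the 3 nearest profiles of the 2 members of widest range. *S100a9*, *Cxcr2*, *Lcn2*, *Lepr* and *Itgam* were singled out with their values known, and neighbours or overlapping genes by position.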

Additional observations from a re-analysis of the deposited data

How the results depend on the processing

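The number of all genes called was 0, and it was 664 with a replicate block, 368 with the replicate block and a gene length correction, 181 by the DESeq2 Wald test, 174 by the edgeR exact test and 2 by limma on log2(FPKM + 0.1). It ranged from 0 to 1 when each library was left out. Members called were 0 under every setting. With only 2 numbers, the replicate numbers do not establish pairs, although libraries of the same number deviated together (correlation 0.73 of the deviations from the genotype means). With the replicate block, *Mmp14* (0.71, adjusted p = 0.0382), *Mmp9* (-0.84, 0.0309) and *Mmp27* (-0.74, 0.0295) were below the adjusted threshold by edgeR, all under 2-fold, as were 7.84% of all genes. Over the settings without the block their adjusted p ranged from 0.396, 0.607 and 0.310 to 1. With the length correction added the values were of like size, 0.59, -0.93 and -0.76, and their adjusted p was 0.26, 0.167 and 0.0508. The median of the members ranged from -0.71 (without KO replicate 2) to 0.15 over the fits that left out a library. Of 126 member values under alternatives, 111 kept their direction and stayed uncalled by the joint limit on adjusted p and 2-fold change, and 15 reversed. A fit without 1 library leaves its genotype with a single replicate number, so differences between the numbers enter its value. Leaving out a library gave -1.53 to 3.06 for *Mmp14*, -2.33 to 1.10 for *Mmp9*, -1.89 to 0.86 for *Mmp13*, -0.36 to 0.54 for *Mmp19*, -0.74 to 0.53 for *Timp1* and -0.36 to 0.11 for *Timp2*. *Timp1* also turned, to -0.0044 with DESeq2 size factors, -0.0045 by the Wald test and -0.0237 with the block, and *Timp2* to 0.0434 and 0.0437 by limma with pseudocounts 1 and 0.1. The causes were not tested. With 2 libraries per genotype the intervals are wide, and *Mmp2*, at or under 3 counts, was below the depth of these libraries.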
